A study of Mus musculus with 11 samples.

Results

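The cells described here were Dlx-positive neurons of the embryonic mouse dorsal telencephalon that carried Adarb2 transcripts and no Lhx6 transcript, a combination used to mark interneurons born in the caudal ganglionic eminence (CGE). Other markers of such interneurons were found in only part of them, as described below. They were chosen cell by cell from single-cell RNA sequencing (scRNA-seq). A barcode was kept when it held at least 1000 genes and at most 10% of unique molecular identifiers (UMIs, each counting 1 captured transcript) from mitochondrial genes. A kept cell was a member when the raw UMIs of Dlx1, Dlx2, Dlx5 and Dlx6os1 summed to 3 or more, Adarb2 had 2 or more, Lhx6 had 0, and the cycle genes Top2a and Mki67 together had 2 or fewer. This rule held for 512 of 16335 kept cells, 182 in the WT library and 330 in the cKO library. Levels of the genes in the rule are therefore descriptions of the choice and not results.

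The study asked how Syncrip, an RNA-binding protein, acts in progenitors of the developing neocortex. Its scRNA-seq compared 1 WT embryo with 1 Syncrip cKO embryo (Syncrip fl/fl; Emx1-Cre) at E14.5, taken from the same pregnant mouse on a C57BL/6 background. Both dorsal telencephalons were dissociated and captured with the 10x Genomics 3′ chemistry. In the cKO, Cre recombinase is driven from Emx1, a gene of the dorsal pallial lineage, and the loxP sites flank Syncrip exons upstream of the 3′ end, so 3′ UMIs do not report the deletion. With 1 embryo per genotype no test between genotypes was possible, and cells were not treated as replicates. Every interval given below covers counting error only, and the embryo, its sex and its genotype cannot be told apart.

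Cortical interneurons arise outside the cortex, in the ganglionic eminences of the ventral telencephalon, and migrate tangentially into the pallium. The medial eminence (MGE) yields cells that keep Lhx6 and later become Sst or Pvalb interneurons, whereas the CGE yields cells that carry Adarb2, Prox1, Sp8 and Nr2f2 and later become Vip, Lamp5 and Reln interneurons. The lateral eminence yields striatal projection neurons and, from its dorsal part, olfactory bulb interneurons. Emx1-Cre is known to act in the dorsal pallium and largely to spare cells born in the eminences. Recombination was not measured in the cells described here.

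The matrices listed 8289 barcodes and 100172392 UMIs for WT, and 9659 barcodes and 111313526 UMIs for cKO. Members had a median of 8609 UMIs and 3324 genes in WT and of 7955 UMIs and 3237.5 genes in cKO, below the medians of all kept cells (12277 and 11566 UMIs). Summed over members, 1781510 UMIs in WT and 3006069 in cKO lay behind the levels below, which are given as CPM, the UMIs of a gene scaled to the summed UMIs of the same cells, with exact Poisson 95% intervals. A doublet caller marked 16 members in WT (8.79%) and 17 in cKO (5.15%), against 3.19% and 4.11% of all kept cells. Among all Dlx-positive cells without cycle transcripts, members included, it marked 7.61% and 7.69%. In all, 22 barcode sequences occurred in both libraries, and 1 of them was a member, in cKO. The embryos differed in sex: Xist, the long noncoding RNA of the inactive X chromosome, had 0 UMIs in WT members and 3558 in cKO members, whereas the Y-linked genes Eif2s3y and Uty had 159 and 134 UMIs in WT members and 0 in cKO members.

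Adarb2 encodes a member of the RNA-editing adenosine deaminase family that is known for lacking measurable deaminase activity, and it lies at chr13:8202866-8768747 on the plus strand (mm10). Members carried 2 to 258 Adarb2 UMIs per cell in WT and 2 to 341 in cKO, with 5 or more in 82.4% and 76.7% of them. At least 10 UMIs were present in 110 WT members (60.4%) and in 196 cKO members (59.4%), so most members lay well above the minimum of 2. Excitatory neurons, taken as kept cells with no Dlx UMI and 5 or more UMIs of Neurod2 and Neurod6, reached 2 Adarb2 UMIs in 3.89% of cells in WT and 4.57% in cKO at median depths of 13256 and 12550 UMIs. Dlx-positive cells with 2 or more Lhx6 UMIs did so in 3.64% and 3.39% of cells. The family members Adar and Adarb1 stood at 46.6 and 17.4 CPM in WT members and at 41.9 and 19.0 CPM in cKO members, and neither differed 2-fold from the 2 other Dlx-positive groups described below.

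**Figure D1:**
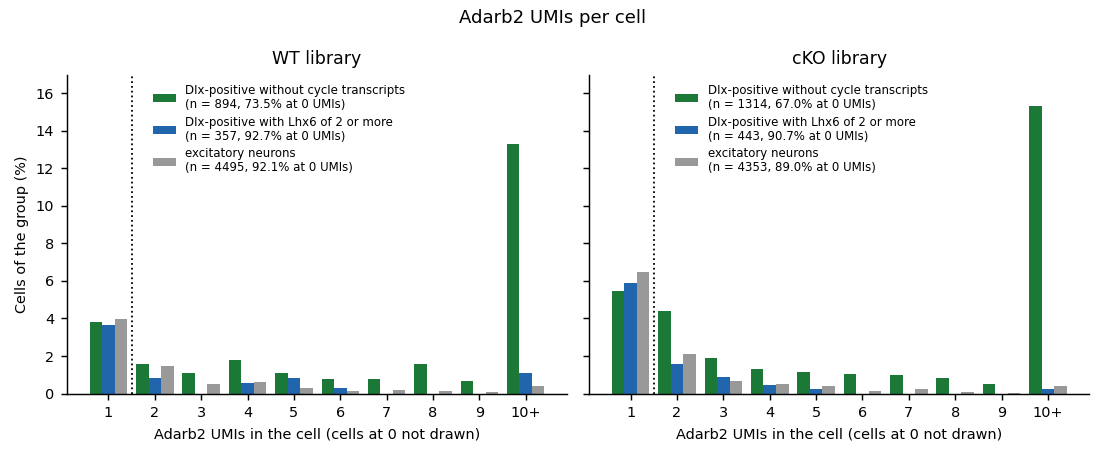
Percent of cells (y axis) carrying each number of Adarb2 UMIs (x axis, 10 or more pooled) in each library, for Dlx-positive cells without cycle transcripts, Dlx-positive cells with 2 or more Lhx6 UMIs, and excitatory neurons. The dotted line marks the minimum of 2 UMIs used in the rule, the legend gives the share of cells at 0, and only the first group of cells has a large share at 10 or more UMIs.

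Cells just inside and just outside the rule were few. Adarb2 stood at exactly 2 UMIs in 9 WT and 46 cKO members, while 19 WT and 39 cKO cells met every other condition with 1 UMI. Sp8 was at 10.2 and 50.5 CPM in the cells inside and at 34.4 and 29.7 CPM in those outside, with the order differing between libraries. Nr2f2 was at 71.7 and 117 CPM inside against 11.5 and 97.9 CPM outside. Levels at the edges of the rule rest on few cells and few UMIs and are given without intervals, so no difference is read from them. At a Dlx sum of 3 there were 5 and 15 members, against 12 and 17 cells with a sum of 2, and the excitatory gene Neurod6 was at 29.2 and 427 CPM inside and at 549 and 626 CPM outside. Lhx6 at 1 UMI kept out 8 WT and 16 cKO cells, whose Erbb4 levels were 5245 and 5932 CPM. Members with 2 to 4 Adarb2 UMIs (32 in WT and 77 in cKO) held less Nr2f2 than members with 5 or more, at 115 (95% interval, 80.4 to 161) and 169 CPM (140 to 202) against 304 (277 to 334) and 402 CPM (377 to 429).

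The label was first checked against the markers that the rule did not use. Sp8, a zinc-finger factor of the dorsal lateral and caudal eminences (chr12:118846329-118852576, plus strand), stood at 80.8 CPM (68.2 to 95.2) in WT members and 78.2 CPM (68.5 to 88.8) in cKO members. It had at least 1 UMI in 36.8% and 37.0% of members, and after every cell was thinned to 5000 UMIs in 28.2% of 170 WT members and 31.0% of 287 cKO members, against 0.855% and 0.5% of excitatory neurons thinned alike. Prox1, a homeodomain factor kept by CGE-derived interneurons (chr1:190118035-190170714, minus strand), stood at 84.8 CPM (71.8 to 99.4) and 95.5 CPM (84.7 to 107), with thinned shares of 21.2% and 27.5% against 2.42% and 2.07% in excitatory neurons. Sorcs3, a sorting receptor of the Vps10 family (chr19:48206025-48805505, plus strand), stood at 154 CPM (137 to 174) and 172 CPM (157 to 187), with thinned shares of 24.1% and 31.0% against 0.6% and 1.05%. Each marker was thus found in a minority of members, and each share lay above that in excitatory neurons, whose median depth was higher. The level of Sorcs3 did not differ 2-fold from that in the striatal-like cells defined below, so it does not set members apart from them.

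Nr2f2, the orphan nuclear receptor COUP-TFII that is known from the caudal eminence (chr7:70351944-70366735, minus strand), was carried more widely. Its level was 272 CPM (249 to 298) in WT members and 346 CPM (326 to 368) in cKO members, and its thinned share was 38.8% and 56.8% against 8.91% and 16.8% of excitatory neurons. Of Sp8, Prox1, Nr2f2 and Sorcs3, none had a UMI in 39.4% of thinned WT members and 25.4% of thinned cKO members, and all 4 had one in 3.53% and 3.83%. Of these, Nr2f2 occurred more often beside each of the others than without it, while Sorcs3 in cKO was found in 26.6% of members with Prox1 and 32.7% of those without. Nr2f2 was found in 77.8% and 84.8% of members with a Prox1 UMI and in 28.4% and 46.2% of members without one. Erbb4, the neuregulin receptor of migrating interneurons (chr1:68032186-69108059, minus strand), was found in 89.4% and 87.7% of members with Nr2f2 and in 51.9% and 55.6% of those without.

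Transcripts for GABA synthesis were present in members of both libraries. Gad2 and Gad1, the enzymes of GABA synthesis, stood at 736 and 253 CPM in WT members and 680 and 248 CPM in cKO members, against 3.05 and 0.652 CPM in WT and 5.04 and 1.47 CPM in cKO excitatory neurons. Of the 15 genes of the adult CGE subtype list, which summed to 482 CPM in WT members and 412 CPM in cKO members, against 864 and 869 CPM in the MGE-like cells defined below and 890 and 835 CPM in excitatory neurons, 5 in WT and 4 in cKO had 0 UMIs. Vip, Lamp5, Sncg and Crh had none in either library, which allows up to 1.68 CPM in WT and 0.998 CPM in cKO, and Calb2 had 1 and 3 UMIs. Cnr1, the cannabinoid receptor of later Cck interneurons, was at 143 and 105 CPM, against 214 and 212 CPM in excitatory neurons. Reln, the secreted glycoprotein of layer 1 cells and later of neurogliaform interneurons, was at 130 and 132 CPM. Htr3a, the serotonin receptor subunit that defines adult CGE-derived interneurons, was at 33.7 CPM in WT members and 18.0 CPM in cKO members, and the chemokine Cxcl14 was at 50.5 and 27.6 CPM.

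Members were set against 2 other Dlx-positive groups without cycle transcripts. Lhx6-positive MGE-like cells had 2 or more Lhx6 UMIs and no Adarb2 UMI (331 WT and 402 cKO cells, median depths 9242 and 8809 UMIs). Striatal-like cells had 3 or more UMIs of Six3, Isl1 and Ebf1, factors of the lateral eminence and its striatal neurons, with no Adarb2 and no Lhx6 UMI (89 and 94 cells, 8007 and 7785 UMIs). A gene was counted as higher or lower when its CPM differed at least 2-fold the same way in both libraries, among genes with at least 100 UMIs. Because the groups were cut from the same table, these ratios are descriptions with no test. Their medians over all genes compared were 0.012 and 0.0010 on the log2 scale against MGE-like cells and -0.0062 and -0.015 against striatal-like cells.

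**Figure D2:**
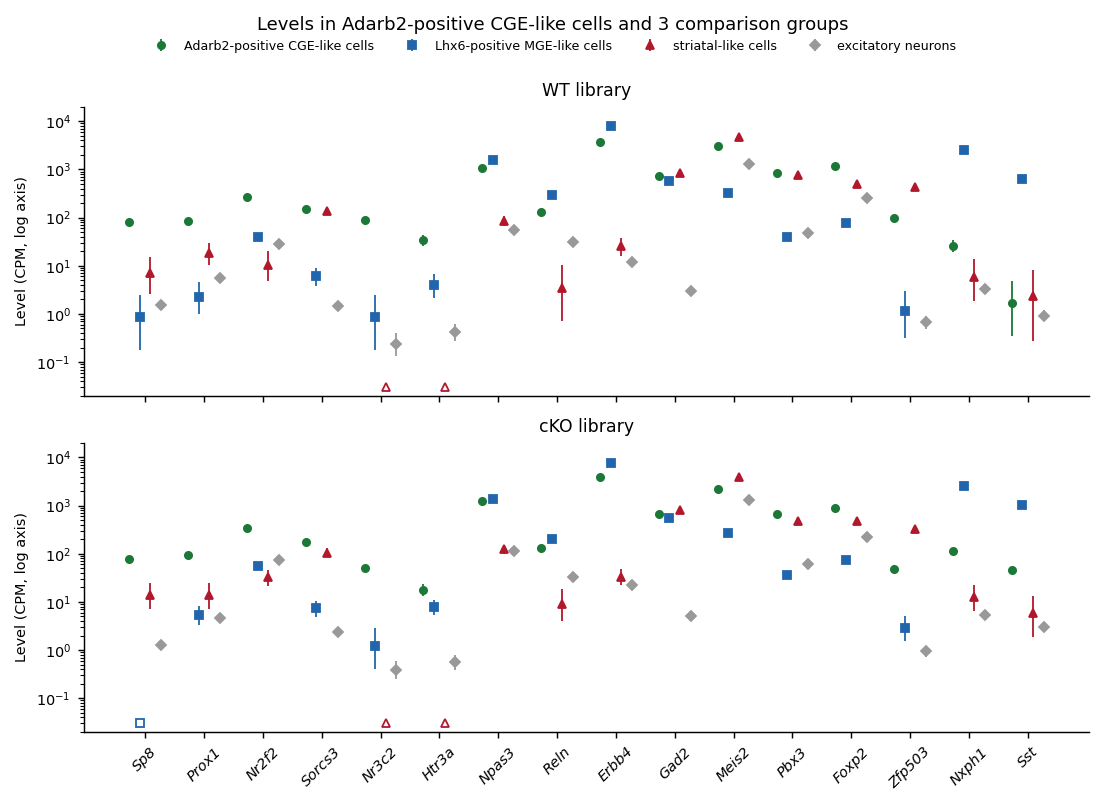
Level in CPM (log axis) of 16 genes in members, MGE-like cells, striatal-like cells and excitatory neurons, WT and cKO drawn separately, with bars for the 95% Poisson intervals and open symbols at the bottom where no UMI was counted. Sp8, Prox1 and Nr2f2 were highest in members of both libraries, whereas Nxph1 and Sst were highest in MGE-like cells.

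Against MGE-like cells, 243 of 9590 genes were higher in members (2.53%) and 190 were lower (1.98%), 433 in either direction (4.52%). The 3 markers free of the rule were all higher. Sp8 was at 0.861 CPM in WT MGE-like cells and at 0 in those of cKO, where members were at least 107-fold higher, counting 3 UMIs as the floor for the group. Prox1 was higher by 5.21 on the log2 scale in WT (4.19 to 6.44) and by 4.15 in cKO (3.52 to 4.85), and Sorcs3 by 4.68 and 4.55. In the list of caudal and lateral eminence factors, 5 of the 9 genes compared were higher and 0 were lower, with medians of 2.78 and 2.53. Nr2f2 was higher by 2.78 in WT and 2.67 in cKO, and Zfhx3, a large homeobox factor, by 4.07 and 4.19. Against striatal-like cells the log2 ratio of Zfhx3 was -2.52 and -2.80. The part in its ratio to MGE-like cells of members that carried striatal factors, described below, was not tested. Npas3, a bHLH-PAS factor, was not among them, at 1093 and 1244 CPM in members and 1600 and 1400 CPM in MGE-like cells.

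Among the genes with the largest ratios was Nr3c2, which encodes the mineralocorticoid receptor (chr8:76899442-77245012, plus strand). It stood at 87.6 CPM in WT members and 49.9 CPM in cKO members, against 0.861 and 1.22 CPM in MGE-like cells and 0 UMIs in striatal-like cells. Members were thus higher than MGE-like cells by 6.67 (5.10 to 8.96) and 5.35 (4.10 to 7.0) on the log2 scale. Hs6st3, a heparan sulfate sulfotransferase, was higher by 4.38 and 5.85, and the secreted ligand Wnt5a was at 86.4 and 78.5 CPM against 4.30 and 6.35 CPM. In the olfactory bulb and dorsal lateral eminence list 5 of 7 genes were higher and 0 lower (medians 2.09 and 2.77). They were Meis2 (3121 and 2160 CPM in members), Pbx3 (846 and 670 CPM), Tshz1 (344 and 223 CPM), Synpr and Pax6, where Meis2, Pbx3, Tshz1 and Pax6 encode transcription factors and Synpr a synaptic vesicle protein. In the list of striatal projection neuron genes, 4 of 6 were higher and 0 lower (2.77 and 2.63). These were Rarb, Foxp2, Foxp1 and Zfp503. Without the members that carried striatal factors, described below, the log2 ratio of Rarb was 0.07 in WT and 0.64 in cKO in place of 4.2 and 4.08, and Zfp503 had 0 UMIs in cKO members, while Foxp2 kept ratios of 3.52 and 3.17.

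Genes of MGE-derived interneurons ran the other way, with 8 of 9 compared genes lower in members, 0 higher, and medians of -3.23 and -2.84. Nxph1, a neurexin ligand, was at 26.4 and 112 CPM in members against 2585 and 2596 CPM in MGE-like cells. Maf, a basic leucine zipper factor, was at 73.5 and 76.8 CPM against 856 and 931 CPM. The neuropeptide genes Sst and Npy were at 1.68 and 6.18 CPM in WT members, against 646 and 275 CPM. In cKO members Sst was at 44.9 CPM, and 124 of its 135 UMIs lay in 1 cell. Sox6, an SRY-box factor that acts downstream of Lhx6, was at 198 CPM (178 to 220) in WT members and 435 CPM (412 to 459) in cKO members, against 984 and 978 CPM. The homeobox gene Mkx had 0 and 1 UMI in members, at least 27.9-fold lower in WT. Lhx8, a factor of the medial eminence, had 0 UMIs in members of both libraries.

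Receptors, channels and guidance molecules divided the groups further. In the glutamate and GABA receptor list 6 of 25 genes were lower in members and 2 were higher (medians -0.33 and -0.10). The AMPA receptor subunits Gria1 and Gria4 were lower by 3.54 and 3.25 on the log2 scale in WT and by 3.03 and 2.90 in cKO, the kainate receptor subunit Grik1 stood at 29.2 and 50.9 CPM against 385 and 345 CPM, and the metabotropic receptor Grm5 at 25.3 and 44.6 CPM against 690 and 615 CPM. In the ion channel list 4 of 21 genes were higher and 3 lower (0.11 and 0.09). Kcnd2, a subunit of A-type potassium channels, was at 689 and 505 CPM against 214 and 180 CPM, and Kcnc2, a subunit of the channels of fast-spiking cells, at 44.9 and 52.9 CPM against 378 and 354 CPM. In the adhesion and synaptic organizer list 7 of 32 genes were higher and 2 lower (0.30 and 0.48). Sorcs3 and Cntn5 had the largest ratios, but that of Cntn5, 4.81 and 4.03, was 0.30 and 0.47 without the members that carried striatal factors, whereas Sorcs3 kept 5.12 and 4.91.

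Of 24 genes for migration and guidance, 3 were higher in members and 5 were lower (medians -0.18 and -0.20). The chemokine receptors Cxcr4 and Ackr3, which guide interneurons along Cxcl12, stood at 7.30 and 24.1 CPM in WT members and 8.98 and 30.9 CPM in cKO members, against 29.3 and 352 CPM and 33.2 and 344 CPM. Robo1, a Slit receptor, was higher by 1.81 and 2.41, and the semaphorin receptor Nrp2 by 1.73 and 1.01. Erbb4 was present in both kinds of cell, at 3657 and 3912 CPM in members and 8023 and 7551 CPM in MGE-like cells. The 5 genes of GABA synthesis and transport included 0 that differed 2-fold, and the 16 genes of neuron maturation included 1, the synaptic vesicle protein gene Syt1, lower in members. Of 7 genes of S phase and mitosis 3 were higher. Ccnd2, the D-type cyclin that is also known from newborn neurons, was at 1189 and 631 CPM in members and 96.7 and 79.7 CPM in MGE-like cells.

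Against striatal-like cells, 150 of 7985 genes were higher in members (1.88%) and 54 were lower (0.676%), 204 in either direction (2.55%). Erbb4 ranked first by the smaller of its library ratios, at 25.5 and 33.4 CPM in striatal-like cells, and was higher in members by 7.16 (6.56 to 7.84) in WT and 6.87 (6.35 to 7.45) in cKO. Nr3c2 was at least 25.2-fold and 14.4-fold higher. Reln was at 130 and 132 CPM against 3.48 and 9.21 CPM. Cntnap5c, a contactin-associated protein, was at 292 and 306 CPM against 1.16 and 5.76 CPM, and Trpc4, a cation channel, at 145 and 163 CPM against 6.96 and 4.61 CPM. Pdzrn3, a PDZ-domain ubiquitin ligase, was at 211 and 298 CPM against 5.80 and 26.5 CPM.

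Of 8 caudal and lateral eminence factors compared with striatal-like cells, 6 were higher and 2 lower (medians 2.79 and 2.59). Nr2f2 was higher by 4.71 and 3.42, Npas3 by 3.67 and 3.34, Sp8 by 3.54 and 2.50, and Npas1, a related bHLH-PAS factor, by at least 18.1-fold and 8.38-fold. Zfhx3 and Tshz2 were lower. Sorcs3 did not differ 2-fold, at 140 and 105 CPM in striatal-like cells. Higher levels than in striatal-like cells were not confined to this list. In the MGE-derived interneuron list 4 of 8 genes were higher and 0 lower (medians 1.27 and 2.39). In the olfactory bulb and dorsal lateral eminence list 3 of 7 were higher and 0 lower (1.90 and 0.49). In the striatal projection neuron list 0 of 7 genes were higher and 4 were lower, Zfp503, Gucy1a1, Bcl11b and Drd2 (medians -1.22 and -1.28). Drd2, the dopamine receptor of indirect pathway neurons, was at 2.25 and 4.66 CPM in members and 37.1 and 58.7 CPM in striatal-like cells. Slit3, a guidance ligand, had the lowest ratio by this rule, at 64.5 and 122 CPM against 514 and 705 CPM.

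Members were not 1 kind of cell. Of all members, 53 in WT (29.1%, 22.6 to 36.3 by the Clopper-Pearson method) and 81 in cKO (24.5%, 20 to 29.6) also held 3 or more UMIs of Six3, Isl1 and Ebf1. The others held fewer, and of these 101 in WT and 209 in cKO (55.5% and 63.3% of all members) had at least 1 UMI of Sp8, Prox1 or Nr2f2, while 28 and 40 (15.4% and 12.1% of all members) had none. Among the members with 3 or more striatal-factor UMIs, 15 in WT and 37 in cKO also had at least 1 UMI of Sp8, Prox1 or Nr2f2. They were 8.24% and 11.2% of all members and were kept in the set with striatal factors. These 3 sets were drawn after the values had been seen, so only genes outside their definition say anything about them, and no test was made.

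In the largest set Erbb4 was at 5771 and 5741 CPM, Npas3 at 1956 and 1866 CPM, Nr3c2 at 162 and 82.0 CPM and Reln at 236 and 210 CPM. In the set with striatal factors Erbb4 was at 393 and 437 CPM, Npas3 at 65.0 and 121 CPM, Nr3c2 at 0 in both libraries and Reln at 5.13 and 6.87 CPM. That set instead held Rarb, a retinoic acid receptor, at 186 and 279 CPM against 3.16 and 6.14 CPM, and the contactin Cntn5 at 1477 and 1437 CPM against 11.6 and 35.1 CPM. Foxp1 was at 896 and 883 CPM against 114 and 133 CPM. It also had less Adarb2 per cell, with medians of 9 and 5 UMIs against 32 and 23. The third set was high in Foxp2 (2195 and 1409 CPM) and Tshz1 (699 and 500 CPM) and kept Erbb4 at 3266 and 3190 CPM, with Rarb at 4.04 and 17.7 CPM. Erbb4, Npas3 and Reln set the largest set apart from the set with striatal factors but not from MGE-like cells, where Reln was at 292 and 205 CPM. Against MGE-like cells the largest set was higher in Wnt5a, at 133 and 118 CPM, as well as Nr3c2, and lower in Nxph1, at 22.1 and 80.9 CPM, and in Maf, at 114 and 102 CPM. None of these is independent support for the label, since Nr3c2 and Wnt5a were named for their ratios in these members, the MGE genes go with the condition on Lhx6, and Sp8, Prox1 and Nr2f2 drew the set. The set with striatal factors went against the label in Erbb4, Npas3 and Reln, although part of it held Sp8, Prox1 or Nr2f2. The third set is left unnamed. When the striatal-factor set was left out, members made up 1.71% of kept WT cells and 2.84% of kept cKO cells. Zfp503 then had 0 UMIs in cKO members, and its log2 ratio to MGE-like cells, with 0.5 UMIs added to each sum, was -3.70.

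**Figure D3:**
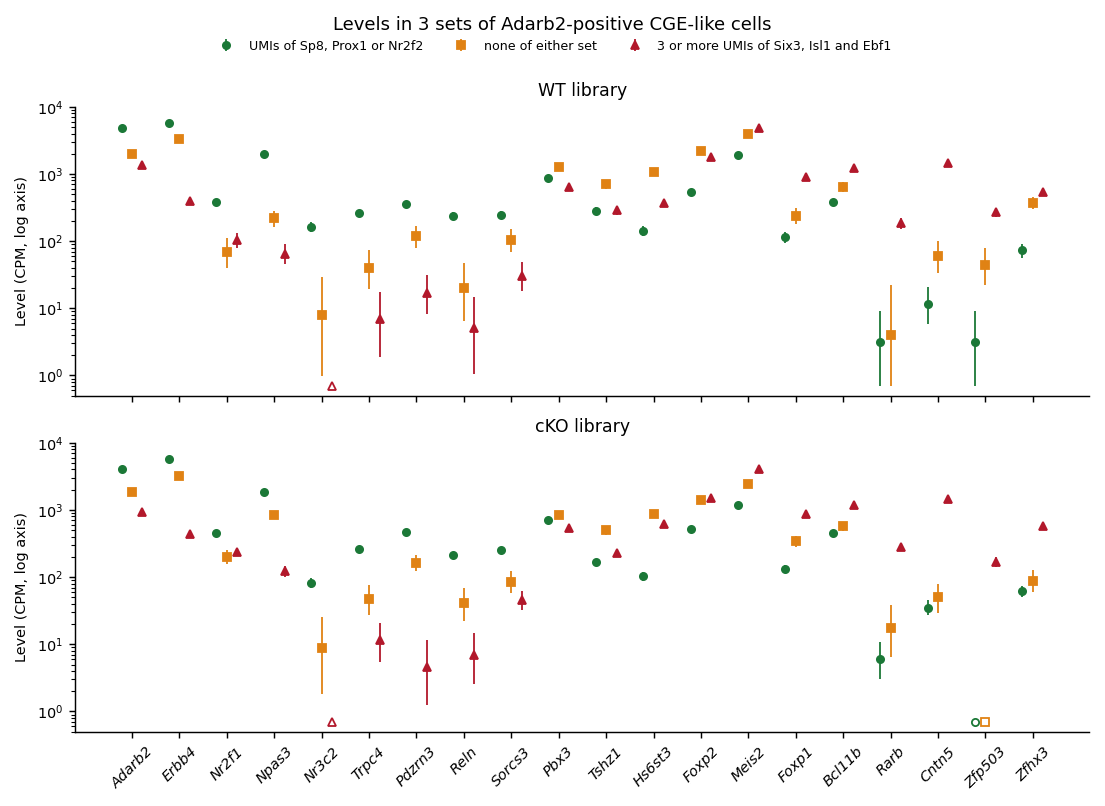
Level in CPM (log axis) of 20 genes in the 3 sets of members, WT and cKO drawn separately, with 95% Poisson intervals and open symbols where no UMI was counted. The first set has under 3 UMIs of Six3, Isl1 and Ebf1 and at least 1 UMI of Sp8, Prox1 or Nr2f2. The set with striatal factors has 3 or more UMIs of Six3, Isl1 and Ebf1, with or without Sp8, Prox1 or Nr2f2. The set marked as none of either has under 3 UMIs of Six3, Isl1 and Ebf1 and none of Sp8, Prox1 or Nr2f2. Erbb4, Npas3, Nr3c2 and Reln were high in the first set and low in the set with striatal factors, while Cntn5 and Rarb had the reverse order.

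Cells were also placed by expression as a whole. Principal components of the 2208 Dlx-positive cells without cycle transcripts were computed with the genes of the rule and of the group definitions left out, and the 20 nearest cells of each cell were read over 30 components. Members had a median of 80% members among their neighbours in WT and 85% in cKO, although members were 23.2% of these cells. The median was 0% for MGE-like cells of both libraries and 15.0% and 17.5% for striatal-like cells. Members with 2 to 4 Adarb2 UMIs had medians of 45% and 55% against 85% and 90% for those with 5 or more, and members with striatal factors 55% and 65%. Of the neighbours of members with striatal factors, 54.7% and 58.4% on average were members and 27.5% and 24.0% striatal-like cells. With 50 neighbours the members' medians were 68% and 76%. The neighbours of members came from the same library for 41.8% in WT and 66.7% in cKO, where the libraries held 40.5% and 59.5% of the cells. Members, which made up most of these neighbours, were themselves 182 WT and 330 cKO cells.

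**Figure D4:**
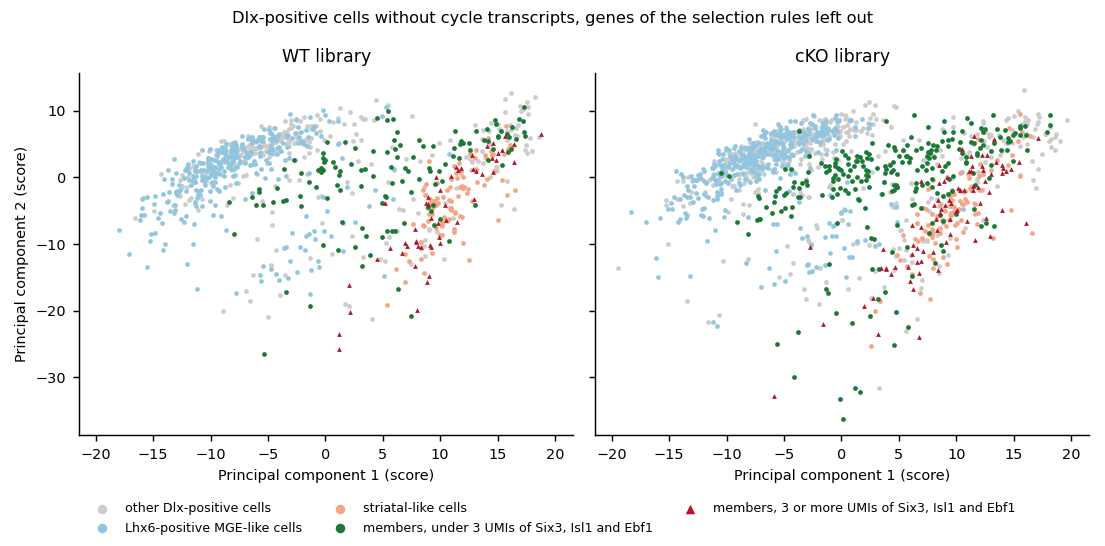
First against second principal component of the 2208 Dlx-positive cells without cycle transcripts, computed without the genes that defined the groups, with members, MGE-like, striatal-like and other cells marked. Members and MGE-like cells occupy separate regions, and part of the members lie toward the striatal-like cells.

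Markers of other cell types were read over their whole lists. The 12 excitatory neuron genes summed to 594 CPM in WT members and 692 CPM in cKO members, against 602 and 593 CPM in MGE-like cells and 3690 and 3550 CPM in excitatory neurons, and none of the 11 compared differed 2-fold from MGE-like cells. Neurod6 was the most abundant of them, at 206 and 204 CPM. The 10 apical progenitor genes summed to 808 CPM in WT members and 878 CPM in cKO members. Their sums were 407 and 486 CPM in MGE-like cells, 750 and 1084 CPM in striatal-like cells, and 413 and 430 CPM in excitatory neurons. Of the 7 compared with MGE-like cells, 2 were higher in members and 0 lower (medians 0.88 and 0.77). Microglial genes summed to 10.1 and 15.6 CPM, with C1qa at 0 and 3 UMIs, and endothelial genes to 6.17 and 3.99 CPM. Oligodendrocyte lineage genes summed to 1.68 and 1.33 CPM with Sox10 at 0, and pericyte and fibroblast genes to 2.25 and 3.99 CPM with Col1a1 at 0. Haemoglobin genes summed to 91.5 and 133 CPM. Trp73, the defining gene of Cajal-Retzius cells, had 0 UMIs in both libraries, while Reln, which they share, was present as given above. Dissociation stress genes summed to 366 and 346 CPM in members and to 154 and 167 CPM in MGE-like cells, and of the 6 compared Jun was higher by 2.04 in both libraries and Fos was lower, at -1.25 and -1.31. The part of stress, of apical progenitor and of excitatory transcripts in the differences between groups was not tested.

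Between genotypes, members made up 2.41% of kept cells in the WT library (2.08 to 2.78) and 3.76% in the cKO library (3.37 to 4.18). Of Dlx-positive cells without cycle transcripts they made up 20.4% (17.8 to 23.1) and 25.1% (22.8 to 27.6). These Dlx-positive cells as a whole were 11.8% and 15.0% of kept cells, MGE-like cells 4.38% and 4.58%, and striatal-like cells 1.18% and 1.07%. The other Dlx-positive cells, in none of these groups, were 3.59% (3.18 to 4.03) in WT and 5.20% (4.75 to 5.69) in cKO, so a higher share in cKO was not confined to members. A share of a dissected sample depends on the extent of ventral tissue taken with it and on the number of all other cells, neither of which can be told apart from genotype with 1 embryo each.

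Within members, 21 of 6933 genes with at least 100 UMIs were at least 2-fold higher in cKO (0.303%) and 10 were lower (0.144%), 31 in either direction (0.447%), of which 4 were Xist, Tsix, Eif2s3y and Uty. The higher count was 43 of 6336 genes without doublet calls and 40 of 5724 without members carrying striatal factors, while after thinning it was 11 of the 3914 genes that kept enough UMIs. The same threshold was passed in either direction by 22 genes in MGE-like cells (0.266%), 40 of 3477 in striatal-like cells (1.15%) and 110 in excitatory neurons (0.803%). The median log2 ratio of cKO over WT over all genes was -0.00 in members.

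Several of the genes past 2-fold came from few cells. Sst, at 3 UMIs in WT and 135 in cKO, had 124 of the latter in 1 cell, and its log2 ratio was 4.74 over all members and 1.70 with the highest cell of each library left out. Nxph1 was at 26.4 CPM from 9 WT members and 112 CPM from 48 cKO members, a log2 ratio of 2.08 (1.64 to 2.56), and this became -0.18 when no condition was set on Lhx6. Ptchd4, a patched-domain protein, was at 7.30 CPM from 9 cells and 36.3 CPM from 33 cells (2.31, 1.48 to 3.27). Bmpr1b, a type I receptor for bone morphogenetic proteins, was at 6.74 CPM from 7 cells and 29.3 CPM from 30 cells (2.12, 1.24 to 3.13), and without doublet calls 2 WT UMIs in 1 cell were left, with a ratio of 4.33 (2.42 to 7.40). The proneural gene Neurog2 had 32 UMIs in 12 WT members and 165 UMIs in 27 cKO members (1.61, 1.06 to 2.21). Its ratio was 3.47 (2.20 to 5.12) without doublet calls, with 5 WT and 102 cKO UMIs, and reversed to -0.29 after thinning. Bc1, a brain cytoplasmic RNA, was higher in cKO by 1.88 in members, 1.18 in MGE-like cells, 1.21 in striatal-like cells and 1.25 in excitatory neurons.

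On the lower side, Etv1, an ETS factor, was at 42.7 CPM in WT members and 14.6 CPM in cKO members, a log2 ratio of -1.54 (-2.11 to -0.99). In members with 10 or more Adarb2 UMIs, where 14 WT and 21 cKO UMIs of Etv1 were left, the ratio was -0.05 (-1.10 to 1.04). Ntng1, which encodes netrin-G1, was at 61.2 and 23.6 CPM (-1.37, -1.83 to -0.93), with a ratio of -0.94 (-1.53 to -0.36) without members carrying striatal factors. Slc18a2, the vesicular monoamine transporter, was at 41.5 and 16.3 CPM (-1.35, -1.90 to -0.81). Npas1 was at 62.9 and 28.9 CPM (-1.12, -1.54 to -0.70), and its ratio in MGE-like cells was -0.84. Zfp521, a zinc-finger factor, had a log2 ratio of -1.12 over all members and of 0.025 without members carrying striatal factors. Il1rapl2 had 59 UMIs in 7 WT members and 41 UMIs in 8 cKO members, of which 35 and 34 lay in 1 cell each.

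Of the marker genes outside the rule, the log2 ratio of cKO over WT was -0.05 for Sp8, 0.17 for Prox1 and 0.15 for Sorcs3. It was 0.10 for Erbb4, 0.02 for Reln and -0.12 for Gad2, but -0.81 (-1.14 to -0.48) for Nr3c2 and -0.91 (-1.46 to -0.35) for Htr3a, beside -1.12 for Npas1. Sox6 was higher in cKO by 1.13 (0.96 to 1.31), from 67 WT members (36.8%) and 185 cKO members (56.1%), whereas it stood at -0.01 in MGE-like cells. Ccnd2 was lower by 0.91 (-1.0 to -0.82), against -0.28 in MGE-like cells and -0.54 in striatal-like cells. Meis2 was lower by 0.53 (-0.58 to -0.48) and Tshz1 by 0.63. Nr2f2 and Nr2f1 were higher by 0.35 (0.19 to 0.51) and 0.55 (0.39 to 0.72), and in excitatory neurons by 1.38 and 0.48. The 3 sets of members did not have the same shares in the libraries, as given above, and the part of that mixture in these ratios was not tested.

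Syncrip itself (chr9:88447009-88482574, minus strand) was at 317 CPM in WT members and 270 CPM in cKO members, from 160 of 182 and 272 of 330 cells. Its log2 ratio was -0.23 (-0.39 to -0.07) in members, -0.32 in MGE-like cells, 0.01 in striatal-like cells and 0.20 in excitatory neurons, and as stated above these 3′ counts do not check the deletion. Hnrnpr, its close paralog, had a ratio of -0.17 in members. Of the 12 temporal genes of the study with enough UMIs, none differed 2-fold in members, where 0.447% of all genes compared did, and their median was 0.06. Hes1, with too few UMIs to be compared, is among the genes whose direction depended on the doublet calls, at -1.43 with them and 2.29 without. The nuclear factor I gene Nfib was at 1796 and 1854 CPM (0.05, -0.02 to 0.11) and Nfix at 269 and 218 CPM (-0.31, -0.48 to -0.13), a direction that reversed for Nfix, to 0.15, without doublet calls.

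**Figure D5:**
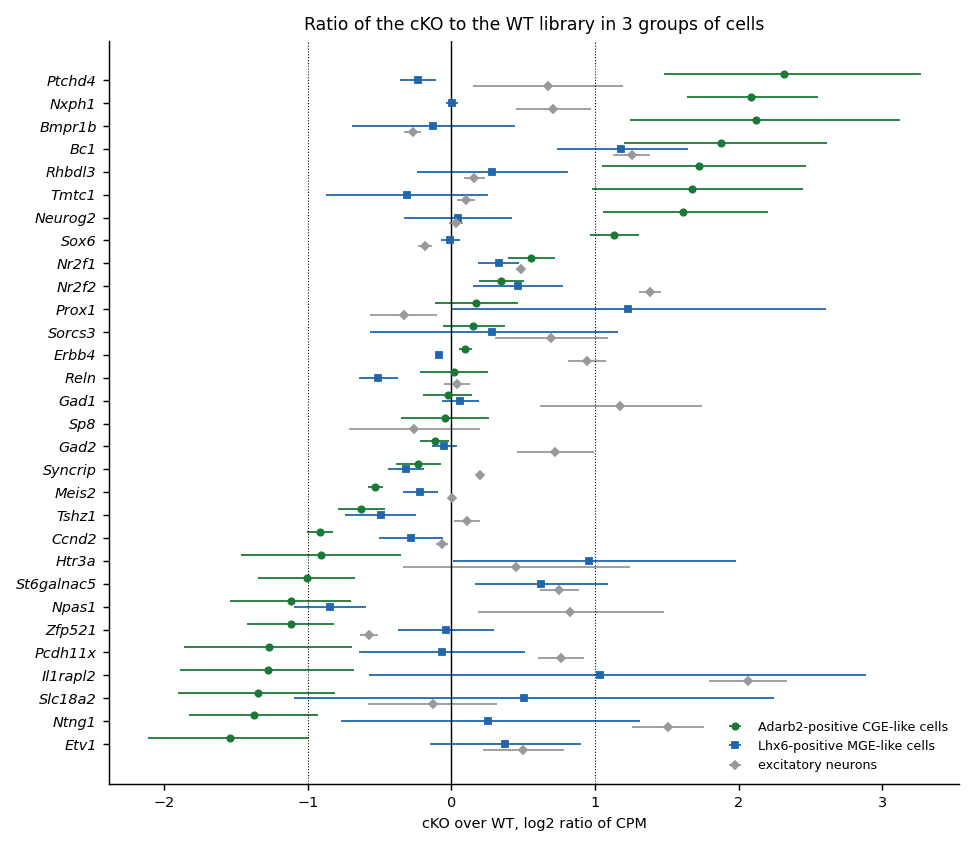
Log2 ratio of cKO over WT of 30 genes in members, MGE-like cells and excitatory neurons, with bars for the 95% intervals from counting error and dotted lines at 2-fold in each direction; a point is missing where a group had no UMI in a library. Sp8, Prox1 and Sorcs3 lie near 0 in members, Sox6 lies near 1 in members and near 0 in MGE-like cells, and 1 embryo stands behind each genotype.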

How the data were processed

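Single-cell suspensions of 1 WT and 1 cKO dorsal telencephalon were sequenced by 10x Genomics 3′ v3.1, and the authors deposited unnormalized UMI counts per gene and barcode for each library. The submitters' processing notes name Cell Ranger and the mm10 build. As for intronic reads, whether they were counted is not given in the sources used here. Per the labels there were about 6000 cells per channel, and the study's methods give a smaller number recovered, whereas the matrices held 8289 and 9659 barcodes, of which the study's filter (200 genes, 10% mitochondrial UMIs) left 8214 and 9560 and the filter used here (1000 genes) left 7554 and 8781. Doublets were called with Scrublet (scanpy 1.11.5) and kept, and an alternative left them out.

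Counts were summed over the cells of a group and library and divided by the summed UMIs of those cells (CPM). Intervals at 95% were exact Poisson for levels, Clopper-Pearson for shares and exact conditional for ratios, computed with scipy 1.17.1 and checked on simulated data. They cover counting error only. A gene was compared when it had at least 100 UMIs over the groups compared, and 0.5 UMIs were added to each sum for the 2-fold call and for ratios recomputed under other settings. Where a group had 0 UMIs, a bound was set at 3 counts. For shares of cells with a UMI, each cell was thinned to 5000 UMIs and shallower cells were left out. Principal components used 2000 variable genes and scikit-learn 1.9.0. Coordinates came from the GENCODE mm10 annotation, which held 32158 of the 32285 gene IDs. Without strand-specific evidence in the sources, UMIs of Dlx6os1 and of the overlapping gene Dlx6 may not be fully separable.

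Genes were named as markers of the label, as members of the gene lists by their 2-fold counts, as the 12 most extreme genes in each direction against each group, as the 10 most extreme between genotypes, or as Syncrip, Hnrnpr and the study's temporal genes. From these, examples are given. The members and the lists were chosen with earlier results of these data known. The other assays of the series were not used here.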

Additional observations from a re-analysis of the deposited data

Results flagged for a closer look

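For 11 of the genes whose ratio between genotypes is given above or that rank among the most extreme, the log2 ratio of cKO over WT had opposite signs in Adarb2-positive members and in excitatory neurons, with at least 100 UMIs in each and both intervals from counting error leaving out 0. This held for 38 of the 213 genes with enough UMIs among all genes listed or named here, part of which were picked for extreme ratios. Over all 6933 genes compared between genotypes within members, the members' interval left out 0 for 1085. Opposite signs were not counted over all genes. With 1 embryo per genotype the difference between the cell groups was not tested. Bmpr1b stood at 2.12 in members and -0.27 in excitatory neurons, and at 4.33 in members without doublet calls, where 1 WT cell held its 2 UMIs. Sox6 stood at 1.13 and -0.18, Gad2 at -0.12 and 0.72, and Tshz1 at -0.63 and 0.11. The Gad2 level in excitatory neurons was far below that in members, as given above, and the part of transcripts from outside the cell in it was not tested. Etv1 stood at -1.54 and 0.50, but at -0.05 (-1.10 to 1.04) in members with 10 or more Adarb2 UMIs. Ntng1 stood at -1.37 and 1.51. Il1rapl2 stood at -1.28 and 2.06, where 35 of 59 UMIs in WT members and 34 of 41 in cKO members lay in 1 cell each. Its ratio was -2.53 without these cells and 0.22 (-0.56 to 1.05) in members with 10 or more Adarb2 UMIs. Pcdh11x, an X-linked protocadherin, stood at -1.27 and 0.76, and the sialyltransferase gene St6galnac5 at -1.01 and 0.75. Syncrip stood at -0.23 and 0.20. The bHLH factor Tcf4 had the smallest pair of values, 0.06 and -0.14.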

How the results depend on the processing

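Results were recomputed under other filters, and those with members of at least 10 Adarb2 UMIs or without striatal factors were chosen after seeing the data. The members' share in cKO moved from 3.76% to 4.2% with at least 1 Adarb2 UMI, 3.23% with at least 3 and 3.11% after thinning. Without cells with 3 or more Neurod2 and Neurod6 UMIs, which also removes most of the denominator, the shares were 7.41% and 9.27%. With at least 10 Adarb2 UMIs they were 1.46% and 2.23%, and without members with striatal factors 1.71% and 2.84%. In each of these settings the cKO share was the higher. Genes higher in cKO members numbered 11 after thinning, with fewer genes compared, 43 without doublet calls, 34 with the mean of single-cell CPM, 67 with at least 50 UMIs and 40 without striatal factors, and genes lower in cKO 18 with mean CPM and 29 with at least 50 UMIs. Genes lower than in striatal-like cells numbered 85 with at least 50 UMIs and 91 without striatal factors.

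Of 507 recomputed log2 ratios between genotypes 12 reversed, and of 1152 between cell groups 1 did. They were Sst (-0.25, at least 3 Adarb2 UMIs), Nxph1 (-0.18, no condition on Lhx6), Tmtc1 (-0.38), Neurog2 (-0.29) and Lsamp (-0.33) after thinning, Hes1 (2.29) and Nfix (0.15) without doublet calls, Neurog2 (-0.37), Il1rapl2 (0.21) and Dbi (-0.030) with at least 10 Adarb2 UMIs, and Zfp521 (0.025), Ncam2 (-0.26) and, against MGE-like cells in cKO, Zfp503 (-3.70) without striatal factors. These ratios had 0.5 UMIs added to each sum. The cause was not tested. Without reversing, 50 of the 507 and 195 of the 1152 ratios were counted as moved, as were 159 of 384 recomputed levels. The 4 recomputed neighbour medians stayed within the spread between cells. No paired analysis was possible because each genotype was 1 library. Depth limits a gene at 0 UMIs to below 1.68 CPM in WT and 0.998 CPM in cKO members.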

Other observations

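Among members thinned to 5000 UMIs, other pairs of genes also divided. Isl1, a LIM-homeodomain factor of striatal neurons, had no UMI in any member with Prox1, and was found in 17.2% of WT and 13.9% of cKO members without it. Meis2 was found in 62.1% and 62.6% of members with Nr2f2 and in 95.2% and 94.4% of those without. Htr3a was found in 28.8% and 11.7% of members with Nr2f2, against 2.88% and 0.806% of those without. These are counts within 1 embryo per genotype and were not tested.

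A small number of Dlx-positive cells without cycle transcripts, 21 in WT and 31 in cKO, held 2 or more UMIs of Adarb2 together with Lhx6 and so were not members. Their neighbours were MGE-like cells for 46.2% and 49.5% on average and members for 20.7% and 12.9%. Doublet calls made up 4.76% and 19.4% of them, and their part in the joint detection was not tested.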
